A study of Mus musculus with 272 samples.

Results

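The 7 genes described here are Arid5b, Cpsf4l, Hormad1, Nexn, D6Ertd527e, Kcng2 and Adra1b, of 15854 gene symbols measured in mouse oocytes and preimplantation embryos. They were selected on measured values, as genes with the largest differences between germinal vesicle (GV) oocytes, metaphase II (MII) oocytes and zygotes, in the transcriptome or along sucrose gradients. Their values at these 3 stages are therefore given as a description, without a test. The series holds 8 stages: the GV oocyte, the MII oocyte, the zygote, the 2-cell, 4-cell and 8-cell embryo, the morula and the blastocyst. There are 4 transcriptome libraries per stage, each from a pool of 20 oocytes or embryos, and 3 gradients (A, B and C), each loaded with the lysate of about 100 oocytes or embryos and collected as 10 fractions. Cycloheximide, which holds ribosomes on mRNA, was in the lysis buffer and in the gradients at all stages. The labels name the stage and the fraction as the only differences between groups and give no strain, genotype, age or hormone treatment. They do not say whether pools came from separate females, so p-values measure the spread between these pools and gradients, which may be partly technical.

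A full-grown GV oocyte is arrested in meiotic prophase with a store of mRNA and little transcription. Meiotic maturation to MII removes some of these mRNAs, and it lengthens or shortens the poly(A) tails of others, which brings them onto ribosomes or off them. Fertilization starts the embryonic programme, and the mouse genome is broadly activated in the 2-cell embryo. In a sucrose gradient an mRNA with many ribosomes sinks deeper than a free one. Fractions 6 to 10 are called the heavy side here and fractions 1 to 5 the light side, by convention, since the labels only number them.

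Values are in CPM, read counts scaled to the total of their library. They compare shares of a library, not amounts per oocyte: in these bulk samples, fewer cells with an mRNA and less mRNA per cell cannot be told apart. Libraries were made from polyadenylated RNA, and the part of poly(A) tail length in the values was not tested. The depth was 11.8 to 25.2 M reads in transcriptomes and 0.0105 to 44.0 M reads in fractions, with a median of 19.0 M reads in the latter. The shallow end was fraction 1 of the GV gradients, where a single read was worth between 0.124 and 95.5 CPM. Fraction 1 was also shallow from the 2-cell stage to the morula, with 0.178 to 0.92 M reads. Single gradients also lost genes in a fraction: where the other 2 gradients held at least 100 CPM of a gene in one of fractions 2 to 10, the remaining one had no read in 4.63% of cases at the 2-cell, 4.36% at the 4-cell and 1.17% at the 8-cell stage, and elsewhere in no more than 0.0713%. All 8 genes of an oocyte list (Zp3, Gdf9, Bmp15 and others) were present in oocytes, with a summed level of 20340 to 23034 CPM in GV libraries. A 6-gene list of 2-cell markers was highest in 2-cell libraries (2046 to 2720 CPM), and a 6-gene blastocyst list in blastocyst libraries (2348 to 2860 CPM). Of 13 cumulus and granulosa cell markers 6 were in the table, and their summed level was 41.0 to 50.4 CPM in GV, 65.2 to 75.8 in MII and 55.0 to 63.3 in zygote libraries. Most of that was Cyp19a1 (means of 38.0, 62.7 and 53.8 CPM), while Inha and Hsd17b1 had no read in zygotes. Of 7 sperm markers 3 were in the table, summing to 15.8 to 20.0 CPM in GV, 3.06 to 4.29 in MII and 5.39 to 10.6 in zygote libraries. Of 5 blood markers 2 were in the table, with no read in the transcriptomes of these 3 stages. Their sum was 33.3 to 53.2 CPM in 2-cell, 36.2 to 159 in 4-cell and 20.6 to 35.6 in 8-cell libraries. It was 21.2 to 39.4 CPM in morula and 1.75 to 3.13 CPM in blastocyst libraries. Most of it was Hba-a1, with a mean of 39.9 CPM in 2-cell embryos against 0.0696 CPM for Hba-a2. The part of such cells in the values of the 7 genes was not tested.

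The genes differ in the contrast in which each was extreme. Changes in these contrasts are differences of mean log2(CPM + 1). Cpsf4l had the largest change of 14642 genes in the transcriptome from GV to MII, at -7.39, ahead of Fcf1 at -6.90. Arid5b had the largest change of 14642 genes from MII to zygote, at -5.45. Hormad1 followed it at rank 2 with a rise of 4.35, ahead of Rn7sk at 3.87. Nexn was the gene with the largest difference between heavy and light fractions in MII oocytes (6.17, ahead of Eif5b at 5.78, of 11314 genes), and D6Ertd527e the one in zygotes (5.51, ahead of Ddx3x at 5.33, of 11323 genes). Adra1b had the largest change of the heavy fractions from MII to zygote (4.81, ahead of Gm16222 at 4.39, of 11048 genes). When the transcriptome change from MII to zygote was subtracted from that of the heavy side, Kcng2 was at rank 10 of 10904 genes (3.83, ahead of Pdha1 at 3.77). Arid5b (4.86) and Hormad1 (-4.52) held ranks 1 and 2 in that contrast. From GV to MII the same difference for Kcng2, -4.88, was the deepest fall among 11357 genes.

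In maturing oocytes, poly(A) tails are lengthened on mRNAs that carry a poly(A) signal and, near it, a U-rich cytoplasmic polyadenylation element, so the letters at the 3′ ends are shown first. The last 100 bases of the longest protein-coding transcript of each gene were read from GENCODE M21 (GRCm38) for 6 of the genes, and Kcng2 was left out. The poly(A) signal was searched as AATAAA or ATTAAA and the U-rich element as TTTTAT or TTTTAAT, on the transcript strand. Of 21340 genes with such a window, 74.8% held a poly(A) signal, 16.4% a U-rich element and 13.1% both. The U-rich letters stood in 2 of the 6, Nexn and D6Ertd527e, both with TTTTAT, which 12.7% of all genes held. The runs below are 30 bases each, 5′ to 3′, with the matched letters in capitals.
Nexn, chromosome 3, U-rich element: aatattgggtggTTTTATatttaattttct
Nexn, poly(A) signal: ttgtgaaatcaaAATAAAtttacctgtgca
D6Ertd527e, chromosome 6, U-rich element: tcctgtacatttTTTTATtattgtttgttt
D6Ertd527e, poly(A) signal: tttgtttatttcAATAAAgatttctttatt
Arid5b, chromosome 10, poly(A) signal: actgtaatatttAATAAAaaatgttactat
Adra1b, chromosome 11, poly(A) signal: tgacaaagtgttATTAAAgttacacttcct
The U-rich element of Nexn starts 64 bases from the transcript's end and the poly(A) signal shown 24 bases from it, and 2 more matches start 97 bases (AATAAA) and 7 bases (ATTAAA) from the end. In D6Ertd527e these distances are 44 and 21 bases. The signals of Arid5b and Adra1b start 28 and 21 bases from the end. Hormad1, on chromosome 3, held an AATAAA 95 bases from its annotated end, and Cpsf4l, on chromosome 11, held none of these letters in its window. A match describes these letters and not a site in use, and the annotated end may differ from the end used in oocytes.

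Arid5b encodes a DNA-binding protein with an AT-rich interaction domain, a transcriptional co-regulator. Its transcriptome level was 18.4, 19.6, 17.8 and 18.3 CPM in the 4 GV libraries, 210, 245, 200 and 200 CPM in MII, and 4.29, 3.75, 5.25 and 2.72 CPM in zygotes. All MII libraries were above all GV libraries, and all zygote libraries below them. In the gradients the picture was different. Averaged over the 10 fractions, the MII gradients A, B and C held 27.8, 24.0 and 38.1 CPM, far under the MII transcriptome mean of 214 ± 21.3 CPM (SD, n = 4). The zygote gradients held 8.52, 19.9 and 25.5 CPM, above the zygote transcriptome mean of 4.00 ± 1.06 CPM (SD, n = 4). The GV gradients were far apart, at 16.7, 34.9 and 1.02 CPM. Of these 3 stages MII had the highest gradient mean too, but single gradients overlapped. GV gradient B and zygote gradient C both held more than MII gradient B. In MII oocytes 67.5% ± 7.11 (SD, n = 3) of its summed CPM lay on the heavy side, beside a median of 49.8% over 7948 genes. In such shares, here and below, the 10 fractions count equally, however much RNA they held. They are therefore not the part of a gene's mRNA that lay in heavy fractions.

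After fertilization Arid5b stayed low until the blastocyst. The 2-cell libraries fell into a higher pair (16.7 and 17.3 CPM) and a lower pair (3.89 and 3.31 CPM), and 4-cell, 8-cell and morula libraries ran from 1.82 to 7.41 CPM. The blastocyst libraries held 38.0, 24.1, 39.2 and 23.2 CPM, all above the morula. The rise from morula to blastocyst was 2.73 ± 0.35 (log2, SE), with an adjusted p of 4.29e-08 in limma's moderated test over 14642 genes. In the order of stage means, MII (214 CPM), blastocyst (31.2 CPM) and GV (18.5 CPM) were apart from each other and from the rest, while 2-cell, 8-cell, 4-cell, zygote and morula overlapped with their neighbours. In the blastocyst gradients the light side held more, 18.9, 7.05 and 18 CPM against 5.55, 2.21 and 13.9 CPM on the heavy side, but this did not pass the test (-1.09 ± 0.57, limma's adjusted p = 0.183).

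Cpsf4l encodes a protein related to Cpsf4, a zinc-finger subunit of the complex that recognises the poly(A) signal. It had 2015, 2156, 1942 and 1955 CPM in GV transcriptomes, 13.1, 12.4, 9.19 and 9.88 CPM in MII, and 49.6, 53.8, 70.7 and 44.8 CPM in zygotes. The 3 stages did not overlap: the MII libraries were the lowest of the 3 and the zygote libraries lay between. Cpsf4l had far higher CPM values in the gradients. Averaged over the 10 fractions, it held 7093, 5940 and 5821 CPM in GV gradients, 330, 366 and 1247 CPM in MII, and 1945, 1392 and 2021 CPM in zygotes. MII gradient C held more than the other two. On the log2(CPM + 1) scale the gradient mean exceeded the transcriptome by 5.47 in MII oocytes, where 95 of 12164 genes had a larger excess and the median gene differed by 0.34. In zygotes the excess was 5.00, in GV oocytes 1.63.

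Fraction 2 was the highest fraction for Cpsf4l in all 3 gradients of GV oocytes, MII oocytes, zygotes and 2-cell embryos. In GV oocytes fraction 2 held 12371, 11016 and 13273 CPM and fraction 10 held 3461, 3721 and 2422 CPM. The share on the heavy side was 41.3% ± 3.17 in GV, 36.8% ± 3.58 in MII, 40.6% ± 1.85 in zygotes and 29.0% ± 3.52 in 2-cell embryos (SD, n = 3 each). In 2-cell embryos, which the choice of the genes did not use, the light side held 1247, 1218 and 1259 CPM and the heavy side 465, 602 and 461 CPM, with no overlap. The difference of -1.29 ± 0.22 passed limma's test (adjusted p = 0.0282), the only 1 of 6 genes tested at this stage, where 1.90% of all genes were called in either direction and 1.09% were lower on the heavy side. The call was lost without any one gradient (adjusted p = 0.208 to 0.224) and with all 8 stages in one fit (adjusted p = 0.280), while the change stayed between -1.22 and -1.43.

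The transcriptome level of Cpsf4l was 55.8 to 78.9 CPM in 2-cell libraries, overlapping the zygote, and 0.709 to 3.15 CPM in 4-cell libraries. The fall of -4.76 ± 0.24 had an adjusted p of 1.64e-19 (limma). Later changes did not pass the test, and the lowest stage mean was 0.670 CPM in blastocysts. The 4-cell and 8-cell gradients had isolated fractions with reads, such as 671 CPM in fraction 5 of 4-cell gradient A. A read was seen in 14 of 30 fraction libraries at the 4-cell stage and 9 of 30 at the 8-cell stage.

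**Figure D1:**
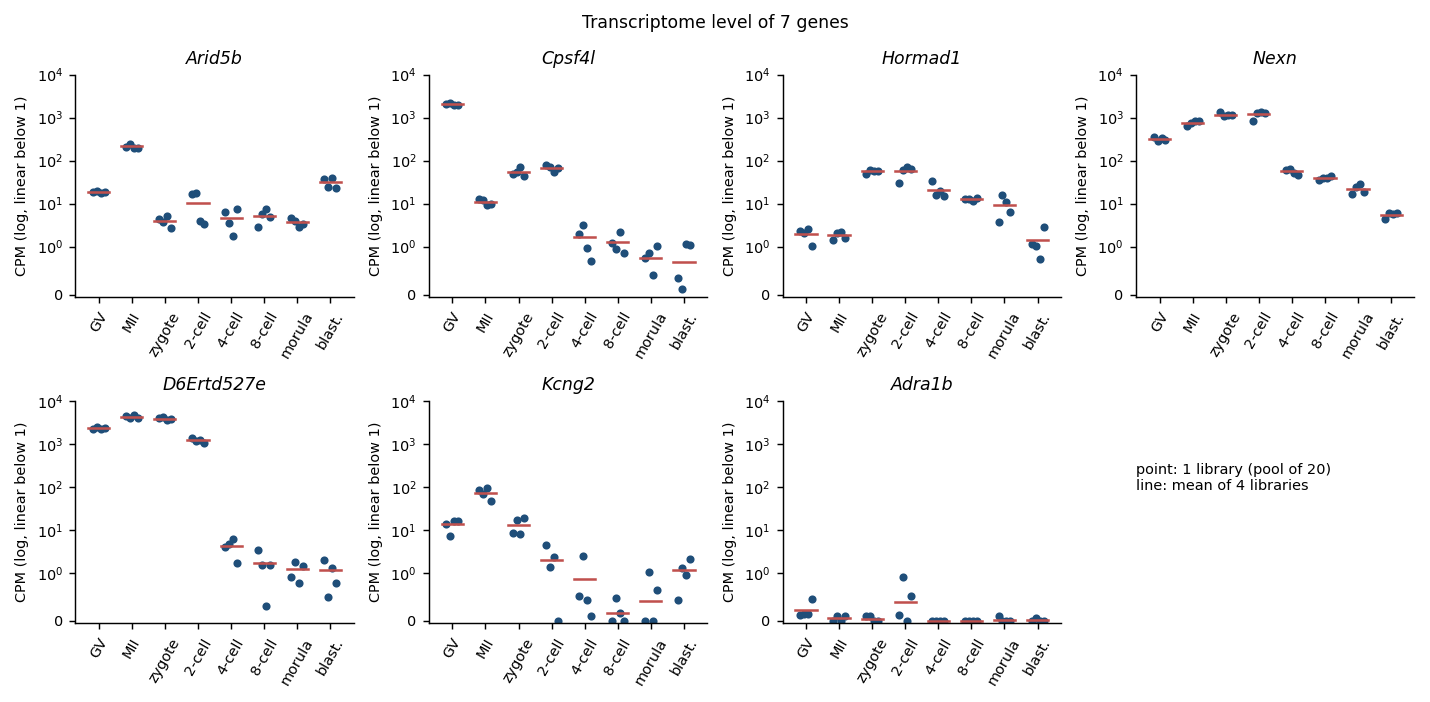
Transcriptome level (CPM on a logarithmic axis, linear below 1) of the 7 genes at the 8 stages, with 1 point per library of 20 oocytes or embryos and a line at the mean of 4 libraries. Arid5b stands out at 214 CPM in MII and Cpsf4l at 2017 CPM in GV. Hormad1 is higher in the zygote, at 56.6 CPM, than in oocytes, and Adra1b has under 1 CPM in every library.

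Hormad1 encodes a protein of the meiotic chromosome axis that acts in prophase. It was near the limit in oocyte transcriptomes, with 2.37, 2.04, 2.58 and 1.05 CPM in GV and 1.4, 2.12, 2.2 and 1.58 CPM in MII. The zygote libraries held 49.8, 61.5, 56.4 and 58.5 CPM, from 966 to 1297 reads each, all far above the oocytes. The 2-cell libraries held 30.3, 61.9, 71.9 and 64.4 CPM and overlapped the zygote. The level then fell. From the 2-cell to the 4-cell embryo the change was -1.38 ± 0.30 (adjusted p = 8.32e-05), and from morula to blastocyst -1.99 ± 0.30 (adjusted p = 9.71e-07, both limma). The stage means between were 21.3 CPM at 4-cell, 12.8 at 8-cell and 9.35 at morula, and neither step between these 3 stages passed the test.

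Little Hormad1 was seen in the gradient libraries. A read was present in 14 of 30 zygote fraction libraries, and 5 of 30 reached 1 CPM. The zygote gradients averaged 4.05, 0.0636 and 0.166 CPM, and gradient A owed its level to fraction 10, at 29.4 CPM. On the log2(CPM + 1) scale the zygote gradients lay 4.96 below the transcriptome, and only 9 of 12330 genes lay lower. Similar single fractions stood alone at later stages, with 113 CPM in fraction 10 of 2-cell gradient C and 200 CPM in fraction 10 of 4-cell gradient B. At the 8-cell stage 1 read was found in 30 libraries, beside a transcriptome of 11.8 to 13.9 CPM.

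Nexn encodes nexilin, an F-actin-binding protein of the muscle Z-disc and of cell adhesions. In GENCODE M21 the span of the unconfirmed gene model Gm43185 overlaps that of Nexn on the same strand. Exons were not compared, and whether reads of Gm43185 entered the Nexn values was not tested. The transcriptome level of Nexn was 351, 293, 330 and 297 CPM in GV, 628, 748, 819 and 836 CPM in MII, 1364, 1083, 1137 and 1125 CPM in zygotes, and 832, 1280, 1331 and 1287 CPM in 2-cell embryos. The first 3 stages were apart in rising order, and the 2-cell libraries overlapped the zygote. The 4-cell libraries held 45.9 to 65.2 CPM, a change of -4.36 ± 0.16 (adjusted p = 1.28e-23). The decline went on to 5.54 ± 0.779 CPM in blastocysts (SD, n = 4), with neighbouring stages apart at each step. Of these later steps the last passed the test (-1.78 ± 0.16, adjusted p = 1.55e-11). The step from 8-cell to morula had an adjusted p of 7.02e-05 but a change of -0.86, under the minimum of 1 used for a call (all limma).

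Along the gradient Nexn lay deep at the early stages. In MII oocytes the heavy side held 629, 276 and 341 CPM in gradients A, B and C and the light side 9.23, 2.38 and 3.66 CPM. The highest fraction was 8, 8 and 9. Fractions 2 to 5 held at most 7.30 CPM in any MII gradient, and fraction 8 held 1201, 456 and 616 CPM. In zygotes the heavy side held 154 ± 62.0 CPM (SD, n = 3), with the lowest value of 84.2 in gradient B, and the light side 6.26, 6.57 and 9.61 CPM. The share on the heavy side was 78.0% ± 4.32 in GV, 98.9% ± 0.301 in MII, 94.9% ± 2.11 in zygotes and 84.2% ± 5.46 in 2-cell embryos (SD, n = 3 each). These are shares of summed CPM, not of the Nexn mRNA. The upper end of the central 95% of all genes was 79.7% in GV, 87.3% in MII, 88.6% in zygotes and 85.3% in 2-cell embryos. In GV fraction 1 of gradients A and B Nexn had 0 and 2 reads, and without fraction 1 the GV share was 87.5% ± 9.17. Leaving out a light fraction cannot lower the share of any gene. The range of all genes includes fraction 1, so it is no measure for that value. Gradient A was the highest of the 3 MII gradients in level but not in share (98.6%, 99.1% and 98.9% in A, B and C).

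In 2-cell embryos the heavy side of Nexn held 176, 91.1 and 143 CPM and the light side 43.0, 9.61 and 31.8 CPM, without overlap, but the difference of 2.42 ± 0.72 did not pass limma's test in that stage alone (adjusted p = 0.0906). In 8-cell embryos the light side held more in all 3 gradients, 44.4, 27.3 and 13.9 CPM against 3.45, 10.0 and 1.03 CPM, and this difference of -2.53 ± 0.98 did not pass either (adjusted p = 0.195, limma). The light values there rest in part on the shallow fraction 1, which held 124, 104 and 4.65 CPM from 40, 49 and 1 reads. Over fractions 2 to 5 alone, a choice made after the data were seen, the light side held 24.4, 8.04 and 16.2 CPM, below the heavy side in gradient B, and the difference was -1.77 (adjusted p = 0.476, limma). With fraction 1 included and all stages in one fit the 2-cell and 8-cell differences passed, at adjusted p = 0.0268 and 0.0337. At the 4-cell stage gradient B was higher on the heavy side (42.7 against 24.8 CPM) and gradients A and C on the light side (34.2 against 0.261 and 20.1 against 8.11 CPM). Fraction 1 there held 129, 111 and 73.6 CPM from 23, 47 and 25 reads, and over fractions 2 to 5 the light side held 10.6, 3.42 and 6.70 CPM, so that gradient C also lay below its heavy side.

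D6Ertd527e is named for an expressed sequence on chromosome 6 and is annotated as protein-coding. It was the most abundant of the 7 in the transcriptome, with 2195, 2437, 2218 and 2386 CPM in GV, 4374, 3981, 4606 and 4043 CPM in MII, and 3922, 4179, 3567 and 3851 CPM in zygotes. MII and zygote overlapped and both were above GV. The 2-cell libraries held 1380, 1173, 1212 and 1038 CPM and the 4-cell libraries 3.92, 4.80, 6.16 and 1.67 CPM. This fall of -7.95 ± 0.25 (adjusted p = 2.69e-25, limma) was the deepest of the 7 genes in any step tested. From 4-cell to 8-cell the change of -0.96 ± 0.25 had an adjusted p of 0.0129 and stayed just under the minimum size for a call.

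The mean share of D6Ertd527e on the heavy side was higher in MII oocytes and zygotes than in GV oocytes. The heavy side itself averaged 1306 ± 427 CPM in GV and 900 ± 424 CPM in MII (SD, n = 3 each). The light side averaged 398 ± 187 CPM in GV and 53.4 ± 27.6 CPM in MII. In GV oocytes the heavy side held 996, 1794 and 1128 CPM and the light side 606, 344 and 245 CPM. In MII oocytes these values were 420, 1224 and 1055 CPM against 61.8, 22.7 and 75.9 CPM, and in zygotes 1585, 1499 and 2297 CPM against 65.1, 19.1 and 42.1 CPM. The share on the heavy side was 76.1% ± 12.1 in GV, 92.9% ± 5.51 in MII, 97.7% ± 1.42 in zygotes and 58.9% ± 15.0 in 2-cell embryos (SD, n = 3 each). By gradient it was 87.2%, 98.2% and 93.3% in MII and 96.1%, 98.7% and 98.2% in zygotes, so these stages overlapped. The GV share rests partly on fraction 1, where gradients A and B had 16 and 28 reads, and was 87.7% ± 9.46 without it. No range of all genes was computed without fraction 1. In MII gradient A the level dropped to 65.7 CPM in fraction 10, while gradients B and C had their highest value there (3478 and 1930 CPM). In zygotes fraction 9 held 2900, 3435 and 3725 CPM and fraction 2 held 2.27, 3.38 and 0.961 CPM.

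In 2-cell embryos the D6Ertd527e sides overlapped, with 696, 311 and 696 CPM on the heavy side and 488, 109 and 889 CPM on the light side (0.55 ± 0.70, adjusted p = 0.697, limma). Gradient C there peaked in fraction 4, at 1609 CPM, and gradient A in fraction 10, at 2037 CPM. The 4-cell gradients had reads in 3 of 30 libraries. The morula gradients had none in 30 libraries, which allows a level of up to 0.00367 CPM if 3 reads over the group are taken as the limit. Limits of this kind cover counting error only, because amplified reads carry no molecular identifiers.

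**Figure D2:**
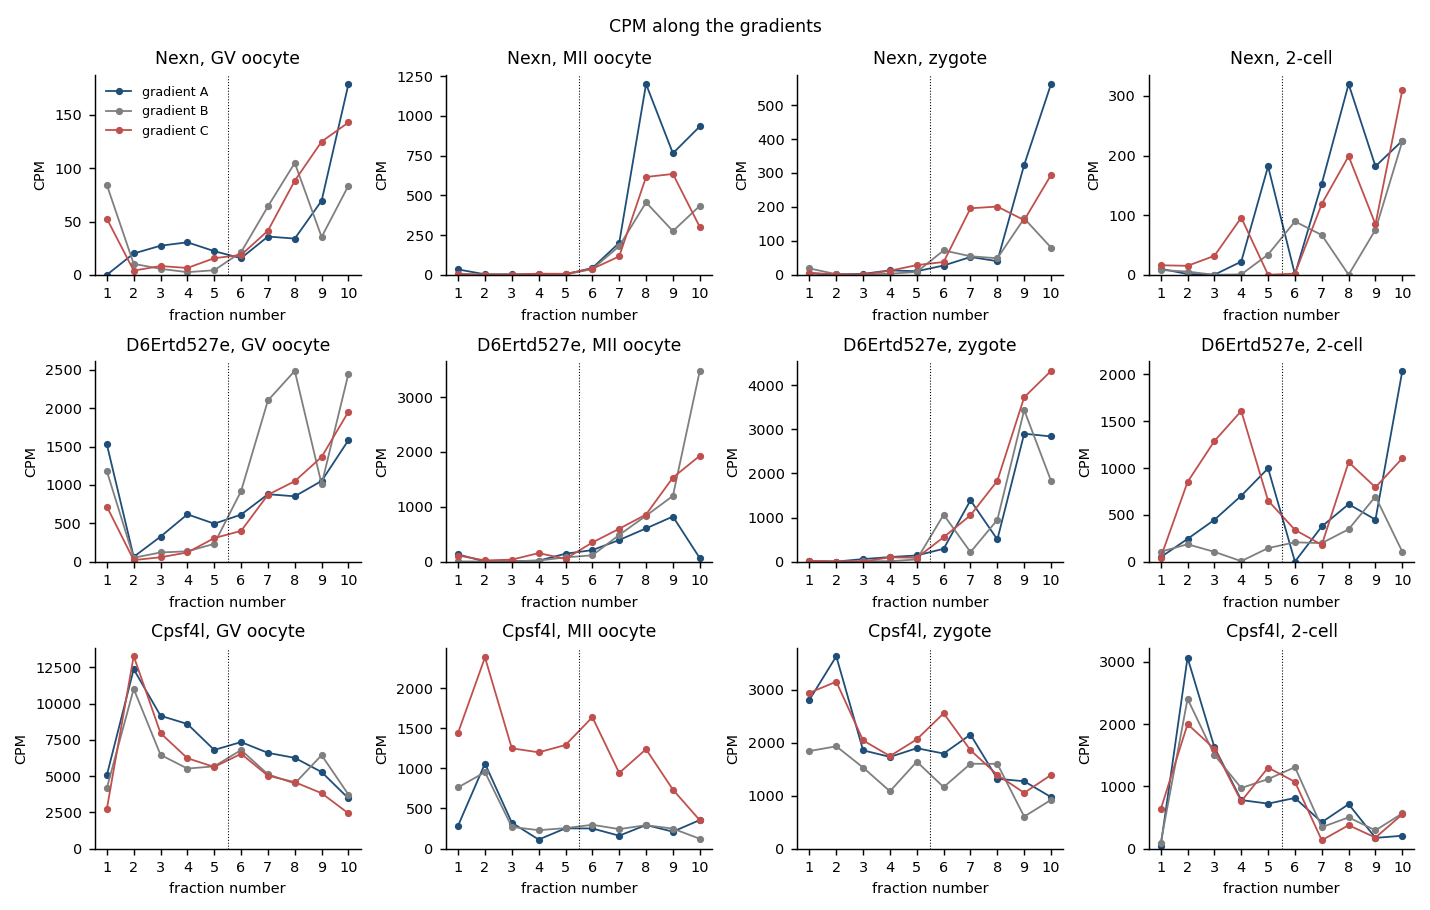
CPM in each of the 10 fractions (x axis) for gradients A, B and C, for Nexn, D6Ertd527e and Cpsf4l at 4 stages; the dotted line parts the light side (1 to 5) from the heavy side (6 to 10). Nexn and D6Ertd527e rise past fraction 6 in MII oocytes and zygotes, whereas Cpsf4l peaks in fraction 2 in all gradients shown.

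**Figure D3:**
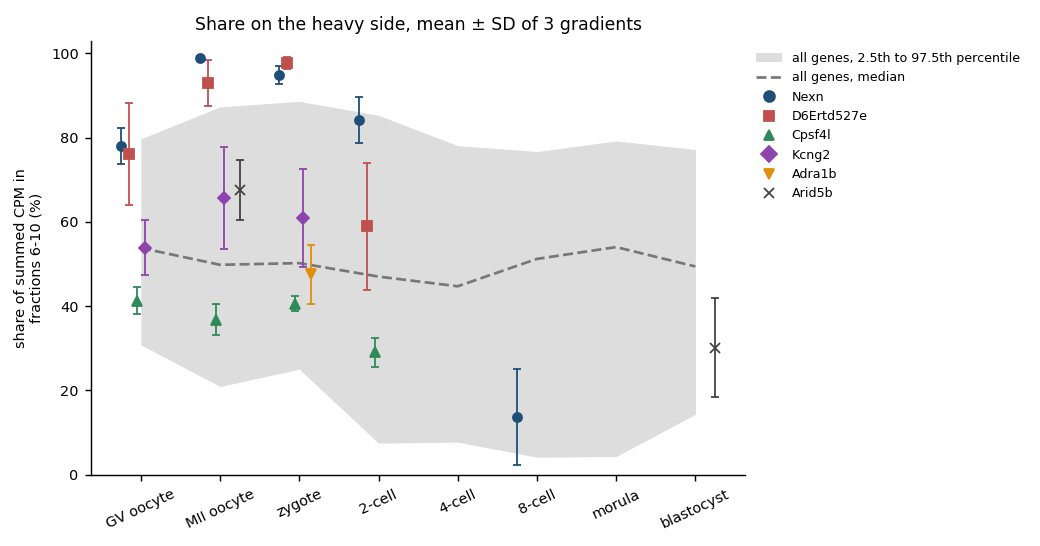
Share of the summed CPM of a gene that lay in fractions 6 to 10 (%), as mean ± SD of 3 gradients, shown where all 3 gradients had reads in at least 8 fractions. All fractions count equally, however much RNA they held. The grey band covers the central 95% of all genes and the dashed line is their median; Nexn in MII (98.9%) and D6Ertd527e in zygotes (97.7%) lie above the band, and Cpsf4l lies between its lower edge and the median.

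Kcng2 encodes a silent subunit of voltage-gated potassium channels, which modifies channels formed with other subunits. Its transcriptome level was 14.1, 7.20, 16.4 and 16.4 CPM in GV, 83.8, 67.3, 92.1 and 46.2 CPM in MII, and 8.58, 16.7, 8.23 and 18.5 CPM in zygotes. The MII libraries were above all others, and GV and zygote overlapped. From the 2-cell stage on no library exceeded 4.43 CPM, and none of the 4 later steps passed the test (adjusted p from 0.148 to 0.712). The gradients ran the other way. Averaged over the fractions, GV gradients held 246, 54.8 and 161 CPM, MII gradients 29.7, 2.74 and 62.6 CPM, and zygote gradients 38.4, 60.3 and 62.5 CPM. GV gradient B lay under MII gradient C, so these stages overlapped, as did MII and zygote.

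The summed CPM of Kcng2 was spread over the GV gradient, with 53.9% ± 6.50 on the heavy side (SD, n = 3), close to the median gene at 53.8%. In MII oocytes this share was 65.6% ± 12.1 and in zygotes 60.9% ± 11.6. GV gradient B was highest in the shallow fraction 1. Over fractions 2 to 5 the GV light side held 216, 49.8 and 170 CPM, against 301, 53.0 and 168 CPM on the heavy side. In 2-cell embryos reads stood in 20 of 30 fractions, with gradient A highest in fraction 8 (257 CPM) and gradient C in fraction 9 (235 CPM). The difference between the sides did not pass the test (0.53 ± 1.20, adjusted p = 0.839, limma). By gradient it was 0.44, -0.70 and 1.85, so a difference either way stays possible. In GENCODE M21 Kcng2 overlaps 3 other annotated genes, Gm37015 on its own strand and Gm26676 and D330025C20Rik on the opposite strand. These overlaps are of whole gene spans, and strand-specific counting is not stated. Whether reads of these genes entered the Kcng2 values was not tested.

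Adra1b encodes an adrenoceptor that signals through Gq proteins and phospholipase C. It was almost absent from the transcriptomes: GV libraries held 2, 2, 2 and 6 reads, MII libraries 0, 2, 0 and 2, and zygote libraries 2, 2, 0 and 0. The highest level in any of the 32 libraries was 0.920 CPM, in a 2-cell library, and so the gene passed no filter for a transcriptome test. Zygote gradients, in contrast, held it throughout. A read was present in 30 of 30 zygote fraction libraries, with 17242 reads in all, and the gradients averaged 21.7, 48.1 and 39.8 CPM. The GV gradients averaged 4.82, 14.8 and 3.30 CPM, with a read in 23 of 30 libraries, and the MII gradients 0.00908, 0.406 and 1.63 CPM, with a read in 8 of 30. All zygote gradients were above all GV gradients, and these above all MII gradients.

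Within the zygote gradient Adra1b had no clear side: the heavy side held 24.1, 43.2 and 33.5 CPM and the light side 19.4, 52.9 and 46.0 CPM, and the highest fraction was 8, 3 and 6. In 2-cell embryos it was seen in 9 of 30 fraction libraries, with 146 CPM in fraction 5 of gradient B and 124 CPM in fraction 2 of gradient C. The 2-cell difference between sides was -2.54 ± 1.55 (adjusted p = 0.376, limma), and it passed with all stages in one fit (adjusted p = 0.00998). No read was found at the 4-cell and 8-cell stage, in transcriptomes or gradients, which allows up to 0.0414 and 0.0409 CPM in the transcriptomes and 0.0107 and 0.00574 CPM in the gradients, at 3 reads over each group.

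**Figure D4:**
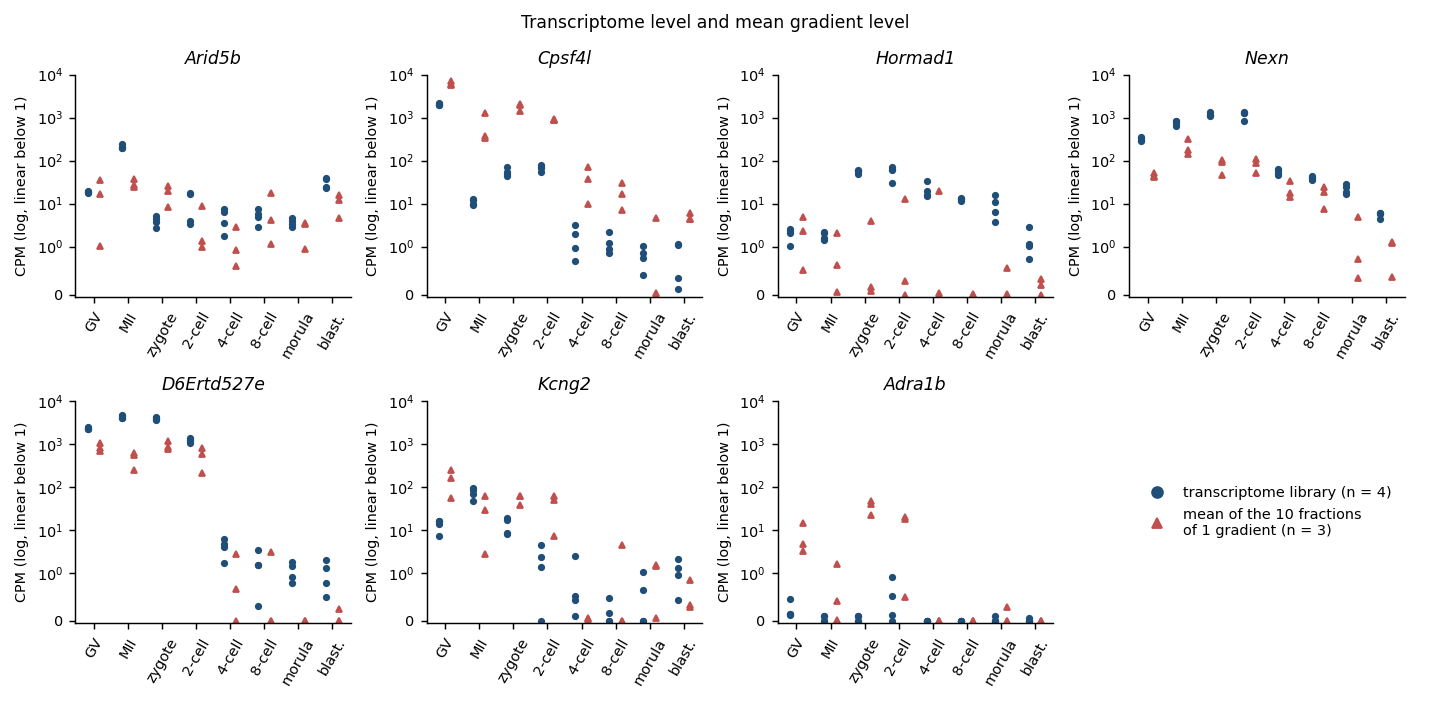
Level of each gene (CPM on a logarithmic axis, linear below 1) in the 4 transcriptome libraries (circles) and as the mean of the 10 fractions in each of 3 gradients (triangles) at the 8 stages. Cpsf4l and Adra1b lie higher in gradients than in transcriptomes in MII oocytes or zygotes, and Hormad1, Nexn and D6Ertd527e lie lower in zygotes.

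In zygotes the gradient level lay above the transcriptome for 4 of the 7 genes and below it for 3. There the gradient mean minus the transcriptome mean, in log2(CPM + 1), was 5.09 for Adra1b, 5.00 for Cpsf4l, 2.02 for Kcng2, 1.82 for Arid5b, -2.10 for D6Ertd527e, -3.93 for Nexn and -4.96 for Hormad1, beside a median of 0.48 over 12330 genes. In MII oocytes, where Nexn lay most on the heavy side, its gradients also held less than its transcriptome, with a difference of -1.93. The 2 kinds of library were scaled separately and fractions were amplified one by one, so these differences describe libraries and not a recovered amount of RNA.

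At steps the choice did not use, the genes can be counted against all genes. From the 2-cell to the 4-cell embryo 4 of 6 tested genes fell (Cpsf4l, Hormad1, Nexn and D6Ertd527e) and none rose, where 64.8% of 14642 genes were called in either direction and 32.9% were called lower. From 4-cell to 8-cell none of 6 was called by limma or edgeR (3 had an unadjusted p under 0.05 in limma), where limma called 2.60% of all genes. From 8-cell to morula none of 6 was called by either tool (1 had such a p), where limma called 11.9%. From morula to blastocyst 3 of 6 were called, Arid5b upward and Hormad1 and Nexn downward, beside 26.8% of all genes in either direction, 18.8% higher and 7.97% lower. For the sides of the gradient, none of 3 tested was called at the 4-cell stage by limma or edgeR (1 had an unadjusted p under 0.05). There 0% of 8575 genes were called by either tool, with 1276 genes in limma and 708 in edgeR at such a p. None of 3 was called at the 8-cell stage (2 had such a p), where limma called 2.55% of all genes and edgeR none. None of 2 was called in the morula or of 2 in the blastocyst by either tool (0 had such a p), where limma called 14.7% and 21.7% of all genes. Genes too low in the gradients were not tested: Hormad1 at all 5 of these stages, Adra1b and D6Ertd527e after the 2-cell stage, Kcng2 at the 4-cell, 8-cell and blastocyst stage, and Cpsf4l in the morula and Nexn in the morula and blastocyst.

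The genes most like each of the 7 were found by Pearson's r of log2(mean CPM + 1) over 88 group means, which share libraries within a gradient and differ in depth, among 12295 genes. D6Ertd527e was most like Nlrp9a (0.948), Ica1 (0.945) and Pramel34 (0.944), and Cpsf4l most like Map3k6 (0.933), Izumo1r (0.933), the egg receptor for the sperm protein Izumo, and Gng3 (0.930). Kcng2 was most like Crabp2 (0.929), Tmem169 (0.908) and Bcar3 (0.896), and Nexn like Tiparp (0.856), Cul1 (0.847) and Mtus1 (0.826). Adra1b was nearest to Shisal1 (0.811), Osgin1 (0.803) and A430093F15Rik (0.798). The profiles of Arid5b (Tm9sf2, 0.716; Hsd17b4, 0.715; Hif1a, 0.706) and Hormad1 (Uso1, 0.674; Cenpq, 0.647; Uchl4, 0.645) had less close neighbours. Among the 7 themselves r ran from 0.04 (Hormad1 and Adra1b) to 0.86 (D6Ertd527e and Kcng2).

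Other genes of the same families and pathways were tested, since the rule that chose the 7 did not name them. Their lists were drawn up with earlier results of these data known, so these tests are not independent of the data. From GV to MII 9.11% of 14642 genes were called higher and 25.3% lower in the transcriptome, and the median gene changed by -0.11 (1334 higher and 3711 lower, against 3234 and 2578 with quantile normalization and 3553 and 3661 with edgeR on recovered reads). Of 14 other ARID domain genes 5 rose and 3 fell, with a median of 0.71. Arid4b, a subunit of a histone deacetylase complex, rose from 10.4 ± 1.96 to 29.3 ± 5.30 CPM (SD, n = 4 each; 1.41 ± 0.20, limma's adjusted p = 2.96e-07), and Arid5a, another ARID protein, fell from 8.82 ± 1.65 to 1.84 ± 0.658 CPM (-1.80 ± 0.29, adjusted p = 2.24e-06). Of 19 cleavage and polyadenylation genes 2 rose and 3 fell (median -0.08). Cpsf4, the relative of Cpsf4l, fell from 20.4 ± 3.17 to 0.466 ± 0.277 CPM (-3.88 ± 0.22, limma's adjusted p = 1.56e-17), and Cpsf2, another subunit of the same complex, rose from 58.3 ± 7.33 to 131 ± 23.1 CPM (1.14 ± 0.14, adjusted p = 1.01e-08).

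Of 22 genes of the meiotic axis, synapsis and recombination 5 rose and 4 fell from GV to MII (median -0.03). Sycp2, a synaptonemal complex protein, rose by 1.44 ± 0.21 (limma's adjusted p = 2.08e-07). Of 25 actin crosslinking and Z-disc genes 3 rose and 7 fell (median -0.02). Actn4, an actinin, rose by 1.18 ± 0.15 (limma's adjusted p = 3.74e-08), and Pdlim2, a PDZ and LIM domain protein, went from 97.3 ± 12.7 to 1.62 ± 0.857 CPM (-5.27 ± 0.27, adjusted p = 1.37e-18). Of 14 voltage-gated potassium channel genes none rose in limma (1 did in edgeR) and 2 fell, Kcng4 (-2.32 ± 0.27, limma's adjusted p = 3.29e-09) and Kcnh5 (-1.04 ± 0.20, adjusted p = 3.41e-05). Of 15 adrenoceptor and phospholipase C signalling genes 1 rose, Plcb3 (1.02 ± 0.26, limma's adjusted p = 0.00082), and 3 fell, Gna11 (-1.60 ± 0.25), Gna14 (-1.11 ± 0.30) and Plcb1 (-1.03 ± 0.26). Over all lists 16 rose and 22 fell, where 9.11% of all genes were called higher and 25.3% lower. With quantile normalization, which moved the median of all genes to 0.16, the split was 32 to 13, and with edgeR, where that median was 0.04, it was 31 to 19. Each of the 38 called relatives had the same sign under both, but of those named Kcnh5, Gna11 and Plcb1 lost the call with quantile normalization and Kcnh5, Gna14 and Plcb1 with edgeR.

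From MII to zygote 5.79% of genes were called higher and 4.48% lower, and the median gene did not move (0.00). Over the 6 lists 2 rose, Mei4 (1.05 ± 0.37, limma's adjusted p = 0.0291) and Pdlim2 (1.47 ± 0.27, adjusted p = 6.73e-05), and 7 fell. Thus 1 of 22 genes of the meiotic list, Mei4, rose at the step at which Hormad1 rose. Mei4, a factor of meiotic DNA break formation, had 7.70 ± 1.81 CPM in MII and 17.2 ± 5.24 CPM in zygotes (SD, n = 4). Its call was lost with quantile normalization (adjusted p = 0.0577) and with edgeR (adjusted p = 0.152). The genes that fell were Arid4b (-1.06 ± 0.20), Actn1 (-1 ± 0.22), Actn4 (-1.27 ± 0.15), Kcnq1 (-1.03 ± 0.17), Kcnh1 (-1.17 ± 0.31), Plcb3 (-1 ± 0.26) and Prkcb (-1.09 ± 0.25). Of these, Kcnh1 and Prkcb lost the call with edgeR and Arid4b, Actn1 and Kcnq1 with quantile normalization. None of the 19 cleavage and polyadenylation genes was called by limma, where 8 had an unadjusted p under 0.05. In edgeR 3 of them were called, beside 2149 of all 14642 genes.

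The sides of the gradient differed for some relatives. In MII oocytes 12.7% of 11314 genes were higher on the heavy side and 6.81% on the light side. Of 12 ARID domain genes 5 were higher on the heavy side and none on the light side (median 0.36, all genes -0.07), led by Arid2 (3.89 ± 0.52, limma's adjusted p = 0.000548). Of 19 cleavage and polyadenylation genes 3 were higher on the heavy side, Papolg, Cpsf2 and Papola, and of 16 meiotic genes 4, led by Sycp2 (4.67 ± 0.62, limma's adjusted p = 0.000498) and Sycp1 (3.52 ± 0.54, adjusted p = 0.00117). Of 23 actin and Z-disc genes 3 were heavy (Ttn, Neb and Palld) and 3 light (Csrp2, Myoz3 and Pdlim7), with a list median of -0.28. Of 8 channel genes 1 was heavy, Kcnh3, and of 12 adrenoceptor and signalling genes none was heavy and 2 were light, Gna11 and Gna14.

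In zygotes 13.2% of 11323 genes were higher on the heavy side and 5.23% on the light side (1500 against 592 genes, and 1276 against 914 with quantile normalization). The ARID list had 5 of 12 on the heavy side, again led by Arid2 (2.94 ± 0.47, limma's adjusted p = 0.00189), and 2 on the light side, Arid5a and Arid3c. Of 19 cleavage and polyadenylation genes 3 were heavy, Wdr33, Cpsf2 and Cpsf3, and of 13 meiotic genes 4, Sycp2, Tex12, Sycp1 and Msh4. The actin list had 2 heavy (Pdlim1 and Palld) and 3 light genes (Actn3, Flnc and Pdlim7) of 20, the channel list none of 9 by limma or edgeR, with 3 at an unadjusted p under 0.05, and the signalling list 1 light gene of 12, Gna14. With all 8 stages in one fit the number of called relatives was 5 in MII oocytes, against 21, and 4 in zygotes, against 20. Without any one gradient 9 or 10 were called in MII oocytes and 9 to 12 in zygotes.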

How the data were processed

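The deposited table gives CPM, which the authors scaled to library totals before they deposited it. Trim Galore 0.6.7, HISAT2 2.2.1, featureCounts 2.0.1, edgeR and GRCm39 are named in the submitters' processing notes, and the annotation is not given in the sources used here. Libraries were made from polyadenylated RNA with a Smart-seq kit, per the labels' protocols, and the strand setting of the counting is not given in the sources used here. In 9 columns repeated symbols lifted the sum, so these deposited values were recorded as a signal and used as CPM; 1 of each set of identical rows was kept, 15771 symbols in all. Values were whole multiples of 1 read (tolerance 0.05 reads, 100% of values), which gave read counts; 1 library with a step near a rounding step, fraction 7 of 2-cell gradient B, was left out of the count models. The columns of the 2-cell transcriptomes bear the letters E to H, which no label has, and were used without a replicate number.

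Tests used limma 3.58.1 (moderated, with a trend) on log2(CPM + 1), which understates changes of low genes, with a filter of 1 CPM in 4 libraries or in 3 side means. All 32 transcriptomes entered 1 fit, and the heavy and light means of a stage were fitted alone. A call needs a Benjamini-Hochberg adjusted p under 0.05 and a change of at least 1. In recovered reads edgeR 4.0.16 called 7214 genes from GV to MII, against 5045. Heavy and light means come from the same gradient and are paired by it: their deviations correlated at 0.01 to 0.27. Simulated reads with 200 changed genes were used to check the fits: of 4-fold changes 95% were recovered for the 2-cell to 4-cell transcriptome (9884 genes) and 34.5% for the morula sides (7918 genes). Of 2-fold changes 34% and 0% were recovered, and of 8-fold changes 100% and 57%. Many true differences between sides can thus go uncalled, and the sides at other stages were not simulated. Replicates differed beyond sampling noise in all 288 pairs.

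Members and gene lists were chosen with earlier results of these data known. All 7 members are named, with the gene ranked next to each where it ranked highest, its 3 genes of most similar profile, and the called relatives with the largest rise and fall; other relatives are named where a count was 5 or fewer. The values of 1 relative that this rule names are not reported here.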

Additional observations from a re-analysis of the deposited data

Results flagged for a closer look

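Of 43 groups of 4 transcriptome libraries checked for 1 value far from the others, 1 was found: Nexn in 2-cell embryos, where the library in column E held 832 CPM and the other 3 held 1280 to 1331 CPM. Chance alone gives about 1 such group in 20. The same library held the lowest Hormad1 level of its stage, 30.3 CPM, and the highest Cpsf4l and D6Ertd527e levels, 78.9 and 1380 CPM. Its part in these values was not tested, and without it the fall of Nexn to the 4-cell stage remained called.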

How the results depend on the processing

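Of 531 alternative values for single genes 494 kept direction and call, and 15 turned direction, none of them past the threshold before or after. For heavy against light, Nexn at the 4-cell stage went from -1.75 to 1.98 with edgeR and 0.12 over fractions 6-10 against 2-5, and Arid5b in the morula from 0.17 to -0.13 with edgeR; Cpsf4l from 4-cell to 8-cell went from -0.17 to 0.01 with quantile normalization. Without one library this step ran from -0.35 to 0.07 for Cpsf4l and from -0.11 to 0.41 for Arid5b, D6Ertd527e from 8-cell to morula from -0.49 to 0.11, and morula to blastocyst from -0.26 to 0.05 for Cpsf4l and from -0.26 to 0.07 for D6Ertd527e. Without one gradient the sides of Arid5b ran from -0.15 to 2.2 at 2-cell, -3.44 to 0.73 at 8-cell and -0.52 to 0.55 in the morula, and those of Kcng2 from -0.13 to 1.14 at 2-cell and -0.01 to 1.04 in the morula. Called relatives from MII to zygote numbered 9, and 16 with a pseudocount of 0.1, 16 with edgeR, 22 with DESeq2 and 6 to 14 without one library. Members called from 4-cell to 8-cell numbered 0, and 1 (D6Ertd527e) with a pseudocount of 0.1, with DESeq2, and without 8-cell library A or 4-cell library D (range 0 to 1); from 8-cell to morula 0, and 1 (Nexn) with DESeq2. Arid5b fell from 2-cell to 4-cell with edgeR (-1.31) and DESeq2 (-1.34) and without 2-cell library G or H or 4-cell library D, and Kcng2 without library H, so that 4 to 6 members were called without one library. For heavy against light, relatives numbered 21 in MII and 20 in zygotes, and 5 and 4 with all stages in one fit, 9 to 10 and 9 to 12 without one gradient. Members called in 2-cell embryos numbered 1, 0 with no filter, 2 with all stages in one fit (Nexn and Adra1b) and 0 without any one gradient; at the 4-cell stage 0, and 1 with all stages in one fit (Cpsf4l); at the 8-cell stage 0, and 2 (Cpsf4l and Nexn). The cause was not tested.

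Counts over all genes moved too. From MII to zygote DESeq2 called 2408 against 1504, and from 8-cell to morula 2647 against 1740. From 4-cell to 8-cell 380 were called, 25 with only those stages in the fit, 638 with a pseudocount of 0.1 and 885 with DESeq2. For heavy against light, all stages in one fit gave 524 against 2204 in MII, 494 against 2092 in zygotes, 2627 against 188 at 2-cell, 2428 against 0 at 4-cell, 1364 against 252 at 8-cell, 895 against 1610 in morulae and 425 against 2416 in blastocysts. At 2-cell a pseudocount of 0.1 gave 521, no filter 0, edgeR 87, fractions 7-10 against 1-4 gave 730 and the replicate block 119. At 4-cell quantile normalization gave 10, fractions 7-10 against 1-4 gave 7 and the block 2. At 8-cell no filter gave 140, edgeR 0 (943 at an unadjusted p under 0.05) and fractions 7-10 against 1-4 gave 628; edgeR gave 339 in morulae and 1528 in blastocysts, and no filter 1042 in morulae. Over fractions 6-10 against 2-5, 370 were called at 2-cell, 2 at 4-cell, 8 at 8-cell, 931 in morulae and 1597 in blastocysts. Without one gradient 693 to 1467 genes were called in MII, 994 to 1365 in zygotes, 0 at 2-cell, 4-cell and 8-cell, 203 to 1110 in morulae and 1282 to 1669 in blastocysts. The replicate block changed no call of the 7 genes; with it 38 relatives were called over maturation (GV to MII), 9 at the next step, 22 for the MII sides and 21 for the zygote sides. Transcriptome letters gave no clear pairing of the libraries: same-letter deviations correlated at -0.18 to 0.17. The highest value was between morula and blastocyst, and a weak pairing cannot be told from none by this check. No paired analysis was possible for steps with the 2-cell transcriptomes because their columns carry no replicate number. Scaling moved the median of all genes from 0.02 to 0.22 (quantile) and -0.15 (edgeR) from 2-cell to 4-cell, and from 0.16 to -0.01 and 0 from morula to blastocyst. Leaving out fraction 1 was chosen after the data were seen; in the side comparison it changed no call of the 7 genes.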
